A study of Mus musculus with 9 samples.

Results

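Bmx and Tec, 2 of the 41214 gene rows of the expected count table, encode tyrosine kinases of the Tec family and were followed across endothelial cells sorted from mouse ventricles at embryonic day 17.5. Both rows were found by matching the deposited Ensembl gene identifiers to gene symbols. The 2 genes were picked with their differences between the populations already known, so their levels and fold changes are given as a description and without a test.

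The embryos carried the transgenes Nes-Gfp(Tg/0) and Nes-CreER(Tg/0) together with an R26 (tom/+) Cre reporter, and all 3 populations came from the same design, with 0.1 µg tamoxifen given at embryonic day 15.5. There were 3 libraries each of arterial, venous and endocardial cells, all sorted as viable Ter119- CD45- CD31+ cells. They were positive for GFP or, in the venous gate, low for it. The arterial gate, enriched for intramyocardial arteries and capillaries, took Emcn-low Tomato+ cells. The venous gate, enriched for subepicardial veins, took cells low for both Emcn and GFP and without Tomato. For endocardial cells the labels list CD31 and GFP and state no condition on Emcn or Tomato. By their names, the GFP and Cre transgenes were both driven from Nes sequence. GFP was part of all 3 gates, and its level was part of what set the venous gate apart. The labels do not state how many embryos a library holds or whether replicates came from separate litters, and p-values therefore reflect only how far these libraries scatter, possibly for technical reasons.

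Tec family kinases are cytoplasmic tyrosine kinases. Most of them carry a pleckstrin homology domain that binds the membrane lipid made by phosphoinositide 3-kinase (PI3K), are then phosphorylated by Src family kinases, and in turn act on phospholipase C gamma and on regulators of the actin skeleton. Btk and Txk are best known from lymphocytes and Tec from blood cells and liver, whereas mouse Bmx is known from the endocardium and the endothelium of large arteries.

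Bmx (ENSMUSG00000031377) lies on the minus strand of chromosome X at 164192842 to 164258193 and Tec (ENSMUSG00000029217) on the minus strand of chromosome 5 at 72755716 to 72868483 (GRCm38, GENCODE M21). The 250 bases upstream of each start, from RefSeq (GRCm38.p6), are shown because the levels of the 2 genes had the same order over the populations. They are written 5′ to 3′ on the minus strand, and capitals mark GGAA or its complement TTCC. These are the core letters bound by ETS factors, a transcription factor family with some members that act in endothelium.
Bmx, chrX:164258194-164258443: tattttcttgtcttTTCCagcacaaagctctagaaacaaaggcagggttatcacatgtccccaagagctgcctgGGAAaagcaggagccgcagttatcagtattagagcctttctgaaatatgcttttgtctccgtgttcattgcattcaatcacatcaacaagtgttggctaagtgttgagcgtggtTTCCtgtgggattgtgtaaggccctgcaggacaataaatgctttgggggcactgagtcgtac
Tec, chr5:72868449-72868698: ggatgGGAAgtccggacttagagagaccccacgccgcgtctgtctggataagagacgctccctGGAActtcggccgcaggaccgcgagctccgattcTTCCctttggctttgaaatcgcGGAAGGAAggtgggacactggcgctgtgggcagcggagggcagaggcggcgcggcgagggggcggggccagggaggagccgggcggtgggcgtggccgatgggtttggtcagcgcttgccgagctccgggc
The 2 stretches differ in composition. That of Bmx held 45.6% G and C with 4 CG pairs, and that of Tec 68.4% with 26 CG pairs, against medians of 52.4% and 6 over 32851 RefSeq promoters of the same length. The core GGAA, searched on both strands, was found 3 times for Bmx and 5 times for Tec, and 93.4% of all promoters hold it. TGGGAA, the core of the Notch effector RBPJ, which contains GGAA, was found 1 time in each (21.6% of promoters). GATAA, the GATA factor core, was found 2 times for Bmx and 1 time for Tec (22.6% of promoters), and ACAAT, the SOX factor core, 2 times for Bmx and in no position for Tec (27.7% of promoters). These matches describe letters in a window and show no binding.

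Each library held 12750553 to 19474419 counts over all genes. Levels are in CPM, counts scaled to a common library total, after TMM scaling, and 17103 genes passed the filter on low counts. Bmx and Tec both passed it, with mean log2 CPM of 4.47 and 4.58, above 65.5% and 66.8% of the genes tested. Their deposited counts were whole numbers in all 9 libraries, whereas 45.5% of all values above 0 were not whole. Endocardial replicate 1 stood apart from its group on the first 2 principal components, with scores of 35.0 and 139, where replicate 2 scored 115 and 1.8 and replicate 3 scored 117 and -16.2. Arterial replicate 2 stood apart on the second component, at -49.8 against 36.2 and 55.0 for arterial replicates 1 and 3. The marker lists were chosen with earlier results of these data known. Of the 8 arterial markers, 6 were higher in arterial than in venous libraries (edgeR, adjusted p under 0.05), against 0.31% of all genes tested. All 6 endocardial markers were lower in arterial than in endocardial libraries, against 5.75% of all genes. Between venous and endocardial libraries 4 of the 6 endocardial markers were lower in the venous ones, against 4.44% of all genes. Gata4 was not called (10.2 ± 5.07 CPM in venous and 48.3 ± 17.3 CPM in endocardial libraries, adjusted p = 0.0532, edgeR), nor was Tbx20, which averaged 136 ± 36.2 and 88.0 ± 10.6 CPM (adjusted p = 0.0654, edgeR). Of the 4 venous markers, Nr2f2 and Aplnr were lower in arterial than in venous libraries, while Nr2f2 was also lower in venous than in endocardial libraries. The 4 capillary markers summed to 4025 to 4606 CPM in arterial, 3587 to 4695 CPM in venous and 396 to 439 CPM in endocardial libraries, and the 4 pan-endothelial markers to 4135 to 5958, 4028 to 5288 and 2714 to 3620 CPM.

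Bmx had 22.3, 21.3 and 14.0 CPM in arterial replicates 1, 2 and 3 and 8.87, 8.09 and 4.71 CPM in the venous ones, against 92.9, 78.8 and 73.2 CPM in the endocardial ones. The endocardial libraries were highest, the arterial ones intermediate and the venous ones lowest, with no overlap between any 2 populations. The means were 19.2 ± 4.49, 7.22 ± 2.21 and 81.6 ± 10.2 CPM in arterial, venous and endocardial libraries (SD, n = 3 each). The log2 fold change was 1.41 for arterial over venous (2.66-fold), -2.09 for arterial over endocardial and -3.50 for venous over endocardial libraries. The counts behind these levels were 191 to 370 in arterial, 92 to 150 in venous and 1078 to 1216 in endocardial libraries, so that the venous level rests on the fewest reads. Bulk libraries cannot tell fewer Bmx-expressing cells from less Bmx RNA per cell, which holds for Tec as well.

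Tec had 26.2, 38.1 and 34.0 CPM in arterial replicates 1, 2 and 3 and 7.16, 5.93 and 8.91 CPM in the venous ones, against 52.9, 67.7 and 50.9 CPM in the endocardial ones. The order was again endocardial, arterial, venous, with no overlap between populations. Means were 32.7 ± 6.05, 7.33 ± 1.5 and 57.2 ± 9.19 CPM in arterial, venous and endocardial libraries (SD, n = 3 each). The log2 fold change of Tec was 2.16 for arterial over venous (4.46-fold), -0.80 for arterial over endocardial and -2.96 for venous over endocardial libraries. Its counts ran from 355 to 661 in arterial, 96 to 174 in venous and 693 to 940 in endocardial libraries. Of all 17103 genes tested, 73 (0.427%) had this order without overlap, Bmx and Tec among them, and as the 2 genes were chosen on these populations nothing is read from that share.

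**Figure D1:**
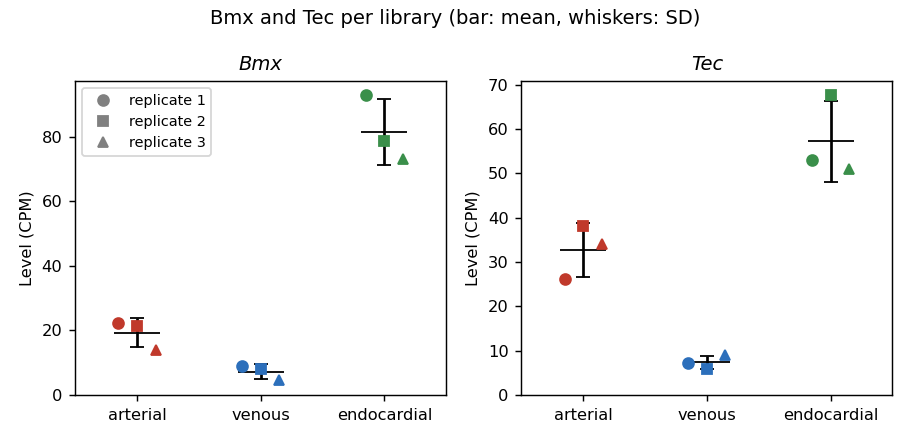
Level of Bmx (left) and Tec (right) in CPM in each library of the arterial, venous and endocardial populations, with 1 symbol per replicate number, a bar at the mean and whiskers of 1 SD. In both panels the 3 venous points lie lowest and the 3 endocardial points highest, while the arterial points of Tec lie nearer to the endocardial ones than those of Bmx do.

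The arterial level of the 2 genes sat at different places between the venous and the endocardial level. On the log2 scale, arterial libraries reached 40.5% of the step between the venous and the endocardial mean for Bmx and 72.7% for Tec. Within replicate numbers 1, 2 and 3 the share was 39.2%, 42.6% and 39.8% for Bmx and 64.8%, 76.3% and 76.8% for Tec, so that the value of Tec was the larger in each. Relative to transcript length (3005 bases for Bmx and 2659 for Tec, the longest protein-coding transcripts), Bmx stood at 6.39 ± 1.5 CPM per kilobase in the arterial, 2.40 ± 0.736 in the venous and 27.2 ± 3.38 in the endocardial libraries. Tec stood at 12.3 ± 2.27, 2.76 ± 0.563 and 21.5 ± 3.46 CPM per kilobase in the same order of populations. The ratio of Bmx to Tec per length was 0.753, 0.495 and 0.366 in arterial replicates 1, 2 and 3, 1.10, 1.21 and 0.468 in venous ones and 1.55, 1.03 and 1.27 in endocardial ones. Arterial ratios lay below all endocardial ones, and the venous ratios overlapped both.

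The labels give a batch number equal to the replicate number, so each difference was also taken between libraries of the same number. For Bmx, arterial minus venous was 1.33, 1.40 and 1.58 on the log2 scale in numbers 1, 2 and 3, and arterial minus endocardial was -2.06, -1.89 and -2.38. Venous minus endocardial was -3.39, -3.28 and -3.96 for Bmx. For Tec the same 3 differences were 1.87, 2.68 and 1.93, then -1.02, -0.83 and -0.58, and then -2.89, -3.51 and -2.51. No difference changed sign between numbers, which follows from the lack of overlap between populations and is no further check. Without endocardial replicate 1, arterial minus endocardial was -1.98 for Bmx and -0.86 for Tec, and venous minus endocardial was -3.39 for Bmx and -3.01 for Tec. Without arterial replicate 2, arterial minus venous was 1.28 for Bmx and 1.98 for Tec, and arterial minus endocardial was -2.20 for Bmx and -0.96 for Tec.

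**Figure D2:**
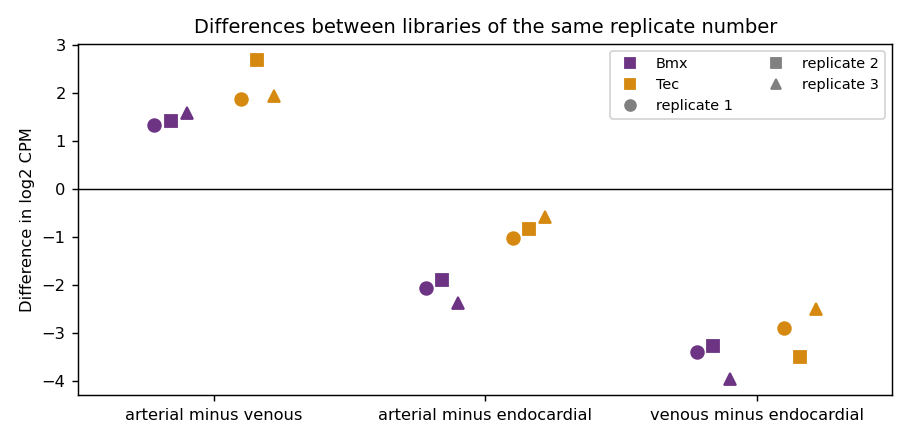
Difference in log2 CPM of Bmx (purple) and Tec (orange) between libraries that share a replicate number, for the 3 pairs of populations, with 1 symbol per number and a line at 0. All arterial minus venous differences are above 0, from 1.33 to 2.68, and all differences against endocardial libraries are below 0, with those of Tec against arterial cells nearest to it at -1.02 to -0.58.

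Bmx and Tec differed from the arterial and the endocardial markers in the combination of their 2 differences. Of the 8 arterial markers, 7 were higher in arterial than in endocardial libraries and none was lower, where 5.92% of all genes tested were called higher and 5.75% lower. The gap junction gene Gja4 was the marker not called in that comparison (55.4 ± 17.4 CPM in arterial and 49.2 ± 14.2 CPM in endocardial libraries, adjusted p = 0.86, edgeR). In contrast, Bmx and Tec had lower values in arterial than in endocardial libraries. Of the 6 endocardial markers, 3 were lower in arterial than in venous libraries and 3 were not called, against 0.76% of all genes called lower and 0.31% called higher. The 3 lower ones were the T-box factor gene Tbx20 (14.2 ± 1.08 CPM in arterial libraries and 136 ± 36.2 CPM in venous libraries), the cadherin gene Cdh11 and the adhesion receptor gene Adgrg6, whereas Bmx and Tec had higher values in arterial than in venous libraries. Both differences share the arterial libraries, and the 2 genes and the marker lists were chosen with earlier results of these data known. The position of the 2 genes on these differences is therefore a description.

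**Figure D3:**
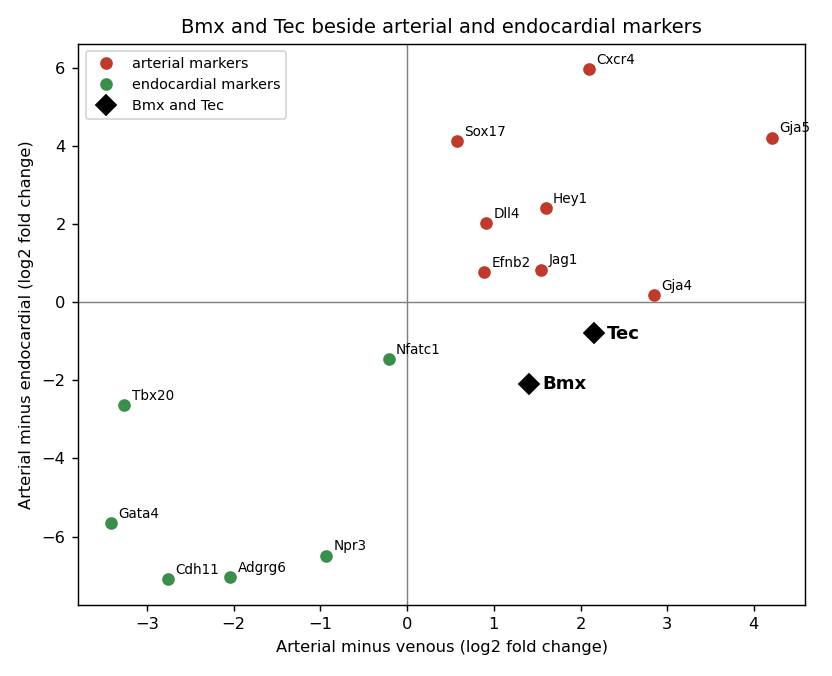
Log2 fold change of arterial over venous (x axis) and of arterial over endocardial libraries (y axis) for 8 arterial markers (red), 6 endocardial markers (green) and Bmx and Tec (black diamonds). The arterial markers lie above 0 on both axes and the endocardial markers below 0 on both, and Bmx and Tec lie at 1.41 and 2.16 on the x axis and at -2.09 and -0.80 on the y axis.

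Leukocytes and platelets also make Tec family kinases, and their markers were low. The 8 leukocyte markers summed to 5.30 to 9.85 CPM in arterial, 5.74 to 6.92 CPM in venous and 6.45 to 10.3 CPM in endocardial libraries, with 7 of the 8 below a mean of 2 CPM in each population. C1qa, a macrophage gene, was at 0 in all venous and endocardial libraries, and the T cell gene Cd3e was at 0 in all endocardial ones. The 7 platelet and erythroid markers summed to 98.8 to 202 CPM in arterial, 56.2 to 66.1 CPM in venous and 26.6 to 82.3 CPM in endocardial libraries. The 4 platelet genes among them, Itga2b, Pf4, Ppbp and Gp9, summed to 3.34 to 9.51 CPM in arterial and 5.73 to 9.76 CPM in venous libraries, against 16.8 to 22.3 CPM in endocardial ones. None of the 5 leukocyte and 7 platelet and erythroid markers that passed the filter on low counts was called by edgeR in any of the 3 comparisons. The sum of the 4 platelet genes was highest in the endocardial libraries, as were Bmx and Tec, and its part in their levels was not tested. Between arterial and venous libraries the platelet sums overlapped, at levels of a few CPM per gene, and nothing is read from that overlap. The 5 fibroblast markers summed to 9.50 to 16.2 CPM in arterial, 216 to 266 CPM in venous and 172 to 239 CPM in endocardial libraries. The 5 cardiomyocyte markers summed to 137 to 210 CPM in arterial, 274 to 397 CPM in venous and 344 to 399 CPM in endocardial libraries. The 5 mural markers, Pdgfrb among them, summed to 109 to 155 CPM in arterial, 49.6 to 59.6 CPM in venous and 43.1 to 73.6 CPM in endocardial libraries. None of these 3 sums had the order of Bmx and Tec, but a sum is led by its highest genes. In the fibroblast list Pdgfra (112 ± 10.2 CPM) and Lum (63.3 ± 20.8 CPM) were highest in endocardial libraries. Col1a1, Dpt and Tcf21 were highest in venous ones, and all of these genes were lowest in arterial ones. Pdgfrb by itself had the order of means of Bmx and Tec. It averaged 14.8 ± 9.46 CPM in arterial, 9.40 ± 2.64 CPM in venous and 40.8 ± 16.5 CPM in endocardial libraries. Its arterial libraries overlapped those of both other populations. The part of these markers in the levels of Bmx and Tec was not tested.

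Btk and Txk, relatives of Bmx and Tec in the family, were scarcely detected. Btk had 0, 12 and 0 counts in arterial replicates 1, 2 and 3 and 0, 0 and 1 in the venous ones, against 1, 34 and 0 in the endocardial ones. Txk had 5, 0 and 6 counts in arterial libraries, none in venous ones and 0, 21 and 0 in endocardial ones. Both failed the filter on low counts, and a single library gave most of their endocardial counts.

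None of the neighbouring genes that passed the filter on low counts was called in any comparison. Near Bmx, Cltrn had no count in any library, and on the other side Pir averaged 1.87 CPM in the arterial, 1.17 in the venous and 3.82 in the endocardial libraries and Vegfd 0.255, 1.37 and 0.803 CPM. Txk begins 2939 bases from Tec, and the next gene on that side, Nipal1, averaged 0.115 CPM in the arterial, 0.0206 in the venous and 0.375 in the endocardial libraries. Slain2, a microtubule-binding protein gene 45821 bases away on the other side, was well measured at 118 ± 26.2, 106 ± 10 and 86.3 ± 16.1 CPM in the same order and was not called (adjusted p of 0.934, 0.2 and 0.448 for the 3 comparisons, edgeR). Beyond it, Slc10a4 averaged 3.34, 0.634 and 0.581 CPM and was not called either. No annotated gene overlaps Bmx. Gm43499 overlaps Tec and has no row in the expected count table.

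The genes with the most similar profiles were taken by the root mean square difference between log2 CPM values over the 9 libraries, each gene centred on its own mean, among 8505 candidates whose log2 CPM averaged 3 or more. The closest to Tec was Enpp2, encoding the secreted lysophospholipase D autotaxin, at 0.379. It had 43.5, 44.2 and 33.3 CPM in arterial libraries and 8.10, 10.2 and 6.04 CPM in venous libraries, against 71.4, 88.6 and 56.7 CPM in endocardial ones. Next came Tpd52 (0.406), Gbp4 (0.498), Gja4 (0.499) and the transporter gene Slc45a4 (0.515). Closest to Bmx was Gbp4, an interferon-inducible guanylate-binding protein gene, at 0.416, with 23.1, 26.6 and 23.5 CPM in arterial libraries and 6.68, 10.6 and 10.3 CPM in venous libraries, against 92.5, 91.5 and 76.7 CPM in endocardial ones. It was followed by the cell cycle inhibitor gene Cdkn1c (0.449), Clca3a1 (0.513), the transferrin gene Trf (0.524) and Enpp2 (0.573). Bmx and Tec were 0.694 apart, with 11 genes closer to Bmx than Tec was and 12 genes closer to Tec than Bmx was. Of the 8 distinct genes, 5 had the order endocardial, arterial, venous without overlap, and the exceptions were Trf, Gja4 and Slc45a4. All 8 were picked for likeness to Bmx or Tec, which have that order, so nothing is read from this count. The counts of Gbp4, Clca3a1, Trf and Tpd52 were whole in none of the libraries, so that some of their reads were divided among features and their levels are less certain. Likeness over 9 libraries of 3 populations reflects mainly the 3 population means, and the libraries also share depth and batch.

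**Figure D4:**
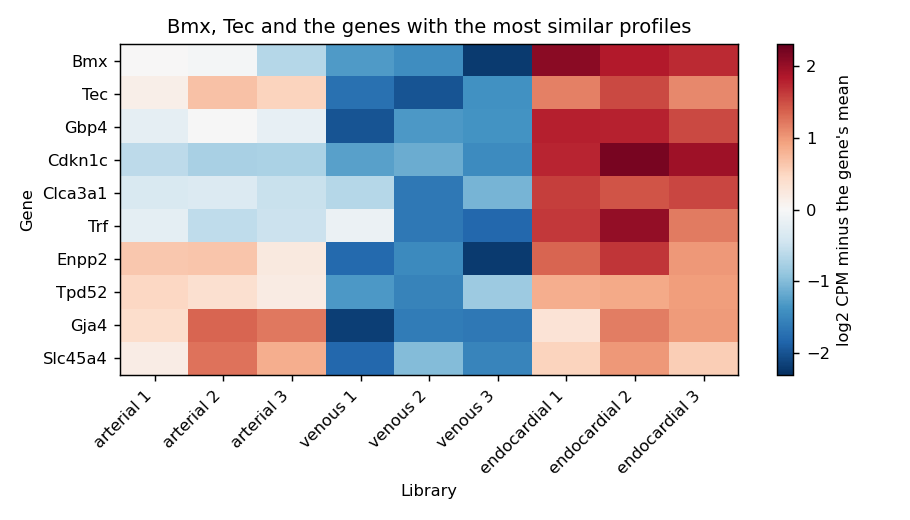
Log2 CPM minus the gene's mean over 9 libraries (colour, blue below and red above the mean) for Bmx, Tec and the 8 distinct genes most like them, with libraries in columns by population. Endocardial columns are red and venous columns blue in all 10 genes, and the arterial columns run from blue in Cdkn1c to red in Gja4.

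A list of 65 other genes of the Tec kinase pathway was examined by role, and 60 of them passed the filter on low counts. The list was chosen with earlier results of these data known, so the shares called in it, in all 3 comparisons, are a description. Between arterial and venous libraries, 3 were higher and none lower (edgeR, adjusted p under 0.05 over all 17103 genes), or 5.00% of the list, where 1.07% of all genes tested were called. The median log2 fold change was 0.19 for the list and 0.03 for all genes tested. Plcg2, encoding phospholipase C gamma 2, a substrate of Tec kinases, had 5.82, 4.38 and 11.4 CPM in arterial libraries against 0.887, 0.556 and 0.717 CPM in venous ones. Its arterial and venous libraries did not overlap, and the log2 fold change was 3.31 ± 0.69 (SE, adjusted p = 0.0247). Met, the hepatocyte growth factor receptor gene, had 17, 21.8 and 13.8 CPM in arterial libraries and 5.38, 3.70 and 4.40 CPM in venous libraries (log2 1.96 ± 0.36, adjusted p = 0.00889). Pik3r3, a regulatory subunit gene of PI3K, had 95.2, 136 and 103 CPM in arterial libraries and 55.3, 45.5 and 54.4 CPM in venous libraries (log2 1.11 ± 0.20, adjusted p = 0.00741). These 3 calls rest on few libraries. Adjusted p was 0.156, 0.0829, 0.114 and 0.114 for Plcg2 without arterial replicate 3 or venous replicates 1, 2 or 3, 0.0737, 0.0634 and 0.056 for Met without arterial replicate 2 or venous replicates 2 or 3, and 0.0859 and 0.0633 for Pik3r3 without arterial replicate 2 or venous replicate 2. The count of 3 was 1 without arterial replicate 2 or venous replicate 3, 2 without arterial replicate 3 or venous replicate 1, and 0 without venous replicate 2.

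Between arterial and endocardial libraries, 14 of the 60 pathway genes were higher and 5 lower, or 31.7% of the list, where 5.92% of all genes were called higher and 5.75% lower. The list median was 0.20 and that of all genes 0.01. Of the 8 tested genes on the list of Src family kinases, which phosphorylate Tec kinases, and of Csk, which inhibits them, 3 were higher and none lower. Fyn averaged 242 ± 25.9 CPM in arterial and 113 ± 6.4 CPM in endocardial libraries (adjusted p = 8.83e-05), Lyn 64.1 ± 5.76 and 28.7 ± 9.78 CPM (adjusted p = 0.00342) and Yes1 204 ± 25.0 and 116 ± 11.9 CPM (adjusted p = 0.00246). Src itself was low, at 2.14 ± 2.35 CPM in arterial and 6.59 ± 3.34 CPM in endocardial libraries, and was not called (adjusted p = 0.509, edgeR).

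Of the 11 PI3K genes, which make or remove the lipid that Tec kinases bind, 4 were higher in arterial than in endocardial libraries. The largest difference was in Pik3cb, the beta catalytic subunit, with 123, 130 and 139 CPM in arterial libraries against 18.9, 15.6 and 19.7 CPM in endocardial ones (log2 2.85 ± 0.20, adjusted p = 4.99e-08, edgeR). The libraries of the 2 populations did not overlap. The gamma catalytic subunit gene Pik3cg averaged 26.4 ± 6.11 and 8.76 ± 3.33 CPM (adjusted p = 0.00509), Pik3r3 111 ± 22.0 and 55.5 ± 5.73 CPM (adjusted p = 0.00198) and Pik3r1 128 ± 6.28 and 74.3 ± 20.1 CPM (adjusted p = 0.0144, edgeR). The alpha catalytic subunit gene Pik3ca was not called (109 ± 7.06 and 87.9 ± 4.28 CPM, adjusted p = 0.296, edgeR).

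Among 14 receptor genes 1 was higher and 2 lower in arterial than in endocardial libraries. Kdr, the VEGF receptor 2 gene, averaged 1951 ± 497 and 607 ± 131 CPM (adjusted p = 6.27e-05). Il6st, encoding the shared cytokine receptor subunit gp130, had 186, 225 and 200 CPM in arterial libraries against 672, 908 and 829 CPM in endocardial ones (log2 -1.98 ± 0.16, adjusted p = 2.43e-07, edgeR). Tek, the angiopoietin receptor gene, had 442, 418 and 308 CPM in arterial libraries against 972, 912 and 960 CPM in endocardial ones (log2 -1.28 ± 0.16, adjusted p = 2.24e-05, edgeR). These 2 receptor genes thus moved in the same direction as the values of Bmx and Tec, whereas Kdr moved in the other. Kit and Tie1 were not called (adjusted p of 0.661 and 0.45).

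Of the 10 adaptor genes, Cav1, encoding the coat protein of caveolae, was higher in arterial than in endocardial libraries (2901 ± 525 and 717 ± 141 CPM, adjusted p = 3.83e-07), and Gab1 and Dok2 were lower. Gab1, a docking adaptor gene, averaged 38.6 ± 2.34 and 92.0 ± 14.8 CPM (adjusted p = 0.000204, edgeR). Dok2, an adaptor gene best known from blood cells, had 2, 0 and 1 counts in arterial libraries against 43, 30 and 175 in endocardial ones, so that its fitted fold is not interpretable, and its adjusted p of 0.00987 was 0.207 without endocardial replicate 3. Of 16 effector genes, 5 were higher and 1 was lower. The exchange factor gene Vav3 averaged 84.0 ± 15.5 CPM in arterial and 37.4 ± 11 CPM in endocardial libraries (adjusted p = 0.00253), and its relative Vav2 4.62 ± 2.09 and 27.4 ± 3.99 CPM (adjusted p = 0.000238, edgeR), in opposite directions. Plcg1 (173 ± 30.6 and 102 ± 21.3 CPM), the focal adhesion kinase gene Ptk2 (232 ± 25.4 and 152 ± 4.80 CPM), Gna13 (86.3 ± 1.64 and 49.9 ± 4.03 CPM) and Arhgef12 (598 ± 31.8 and 394 ± 45.2 CPM) were also higher, at adjusted p of 0.00759 to 0.0145 (edgeR). Calls ended without arterial replicate 2 for Pik3r1, Plcg1, Ptk2 and Arhgef12 (adjusted p of 0.0733, 0.129, 0.136 and 0.0924). They also ended without arterial replicate 3 for Arhgef12 (0.0577), without endocardial replicate 2 for Ptk2 (0.052) and without endocardial replicate 3 for Pik3r1, Plcg1 and Ptk2 (0.0887, 0.0526 and 0.0584).

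Between venous and endocardial libraries, 11 pathway genes were higher and 7 lower, or 30.0% of the list, where 5.81% of all genes were called higher and 4.44% lower. DESeq2 called 11 higher and 11 lower. The list median was -0.03, and that of all genes was -0.10. Of the receptors 5 of 14 were lower in venous libraries. Il6st averaged 217 ± 8.64 CPM in venous and 803 ± 120 CPM in endocardial libraries (adjusted p = 6.64e-07), Tek 536 ± 33.4 and 948 ± 32.2 CPM (adjusted p = 0.00194), Met 4.50 ± 0.843 and 13.9 ± 0.582 CPM (adjusted p = 0.00565) and Pdgfrb 9.40 ± 2.64 and 40.8 ± 16.5 CPM (adjusted p = 0.00854, edgeR). Plcg2, at 0.720 ± 0.166 CPM in venous and 7.44 ± 5.22 CPM in endocardial libraries, was 10.2-fold lower (log2 -3.36 ± 0.69, adjusted p = 0.00389, edgeR). Plcg2 and Met were thus lower in venous libraries than in either other population, and neither was called between arterial and endocardial libraries (adjusted p of 0.987 and 0.701). Vav2 was the other lower effector gene (11.7 ± 3.48 and 27.4 ± 3.99 CPM, adjusted p = 0.048).

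The genes higher in venous than in endocardial libraries were again led by Pik3cb (99.6 ± 17.3 and 18.1 ± 2.19 CPM, adjusted p = 4.27e-07), Cav1 (2754 ± 81.3 and 717 ± 141 CPM, adjusted p = 9.73e-07), Fyn (241 ± 6.22 and 113 ± 6.4 CPM, adjusted p = 0.000135) and Kdr (1652 ± 288 and 607 ± 131 CPM, adjusted p = 0.000343, edgeR). Lyn and Yes1 followed at adjusted p of 0.000687 and 0.00566. Ptk2, Vav3, Inppl1, Arhgef12 and Flt1 were higher at adjusted p of 0.0157 to 0.0464. Those 5 calls, and that of Vav2, each ended without at least 3 of the libraries taken singly, with adjusted p of 0.0501 to 0.218. With the replicate block Plcg1 passed the threshold (adjusted p = 0.0489, against 0.139 without it). The comparison shares its endocardial libraries with that of arterial cells, so that the 2 sets of calls are not independent. The pathway count of 18 was 11 without venous replicate 3 or endocardial replicate 2, and 12 without venous replicate 2 or endocardial replicate 3.

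The key pathway genes Tnfrsf1b, Stat3, Pak1, Dok1 and Ptpn21 were not called in any of the 3 comparisons. None of the 60 pathway genes had the order endocardial, arterial, venous without overlap that Bmx and Tec had. Of all genes tested 0.427% had it. For a list of this length none is near that share, and nothing is read from it.

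**Figure D5:**
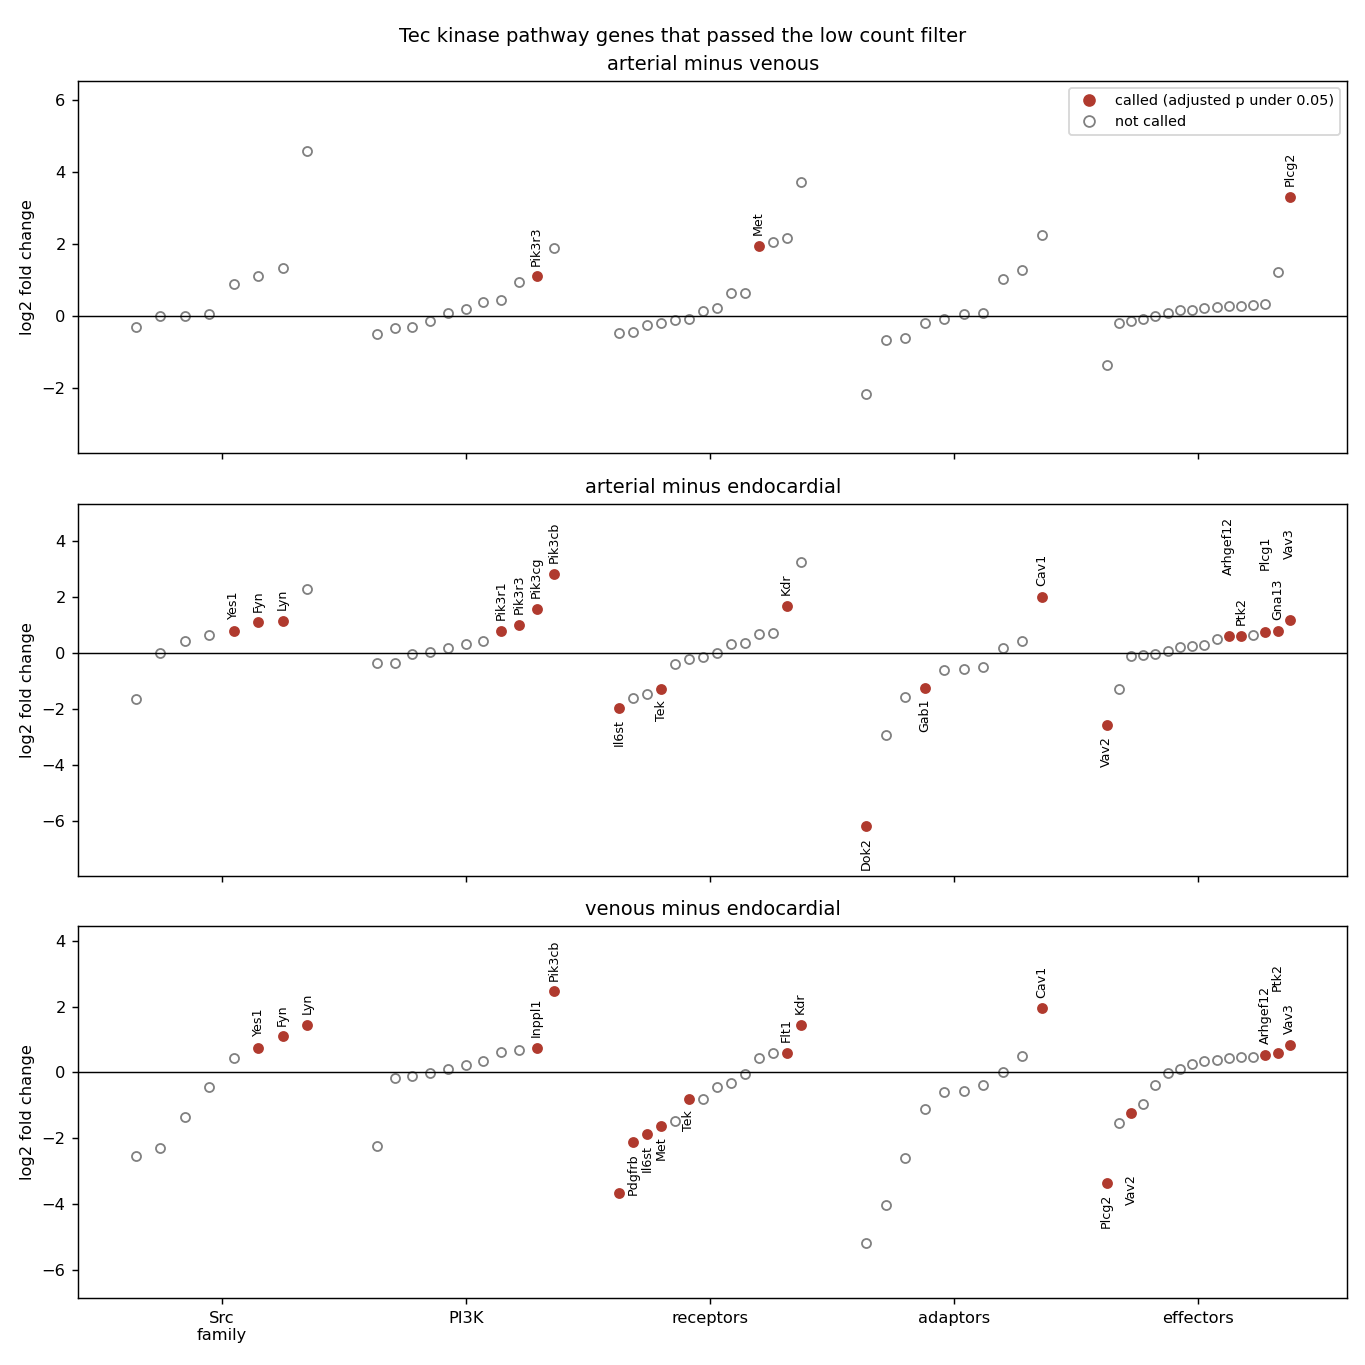
Log2 fold change of the tested pathway genes outside the Tec family, in columns by role and sorted by value within each, for arterial minus venous (top), arterial minus endocardial (middle) and venous minus endocardial libraries (bottom), with called genes filled and most of them named. There are 3 filled points in the top panel, 19 in the middle and 18 in the bottom one, and Pik3cb and Cav1 are among the highest filled points of the lower 2 panels while Bmx and Tec are left out.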

How the data were processed

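RNA from sorted embryonic mouse ventricular endothelial cells was sequenced in 9 libraries, 3 each of arterial, venous and endocardial cells. Per the submitters' processing notes, the tools named are CASAVA 1.8.2, cutadapt 1.3 and RSEM 1.2.3 with GRCm38. For the aligner and the strand setting, nothing is given in the sources used here. The authors deposited expected counts per gene, which RSEM estimates by dividing reads that fit several features. They were rounded to whole numbers. Symbols were matched to 97.67% of the 41214 identifiers.

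Library depth was 12750553 to 19474419 counts. The counts were tested with edgeR 4.0.16 (R 4.3.3, limma 3.58.1): TMM scaling, filterByExpr with a minimum count of 10 (17103 genes kept), a robust quasi-likelihood fit of 9 libraries with 1 mean per population, and Benjamini-Hochberg adjustment at 0.05. Standard errors were derived from each log2 fold change and its F statistic. The common dispersion was 0.409. The steps were run on simulated counts with known changes between arterial and venous libraries only. That run checked the median recovered fold change and set no limit on missed or false calls. Alternatives were DESeq2 size factors, DESeq2 1.42.0, no filter, a replicate block, only the 2 populations compared, and each library left out. Replicate numbers pair libraries through the batch number in the labels. Correlations of deviations from the population means between same-numbered libraries were 0.083 to 0.165, 0.0364 to 0.146 and -0.0902 to 0.0924 for numbers 1, 2 and 3.

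Bmx, Tec and the pathway and marker lists were chosen with earlier results of these data known. Named pathway genes are up to 4 called genes with the smallest p per direction and comparison plus a list of key genes. The other called genes were added after their values were seen. The genes most like Bmx or Tec are the 5 nearest each, without predicted genes, on log2 CPM with a prior count of 2. Gene coordinates come from GENCODE M21 and promoters from RefSeq. Protein sequences were not used here. Some genes of these lists are not reported here by name.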

Additional observations from a re-analysis of the deposited data

How the results depend on the processing

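Bmx and Tec kept their directions in each of the 14 alternatives run. The log2 fold change of arterial over venous libraries ranged over 1.17 to 1.58 for Bmx and 1.98 to 2.31 for Tec, that of arterial over endocardial over -2.20 to -1.90 and -0.96 to -0.66, and that of venous over endocardial over -3.66 to -3.25 and -3.11 to -2.80. With the replicate block, Bmx stood at 1.43, -2.12 and -3.54 and Tec at 2.14, -0.81 and -2.95 in the same order of comparisons, and 3, 21 and 20 pathway genes and 225, 2312 and 2097 of all genes were called. Between arterial and venous libraries 183 of all genes were called, 53 higher and 130 lower, against 439 (179 and 260) with no filter and 404 (172 and 232) with DESeq2, and the cause was not tested. Only the 2 populations compared gave 86 higher and 110 lower. Between venous and endocardial libraries 994 of all genes were higher and 759 lower, against 1219 and 1248 with DESeq2, where 11 pathway genes were higher and 11 lower, against 11 and 7. Leaving out 1 library gave 120 to 225 of all genes and 0 to 3 pathway genes between arterial and venous libraries, and 1130 to 1871 of all genes and 11 to 18 pathway genes between venous and endocardial libraries. Of the 5 genes most like Bmx, 3 were shared when the means of the replicate numbers were removed (replicate block). Of 1243 pairs of a named gene comparison and an alternative, 1179 kept their call, 59 lost it, 5 gained it and 0 reversed. With 3 libraries a population and counts of 92 to 174 for the 2 kinases in venous libraries, small differences are not resolved.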
